A study of Mus musculus with 18 samples.

Results

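The genes described here are the shared front end of interferon signalling: the 4 chains of the interferon receptors (Ifnar1, Ifnar2, Ifngr1 and Ifngr2), the 3 receptor-bound kinases (Jak1, Jak2 and Tyk2) and the transcription factors Stat2 and Stat3. The members were picked by gene symbol, and all 9 matched 1 row each among the 37620 gene IDs in the files. The study grew MO4 tumours, a B16F10 mouse melanoma line that expresses ovalbumin, under the skin of the right and the left hindlimb of C57BL/6 mice. Tumour cells (100000 per side) were given on day 0, and RNA was taken from whole tumours on day 11. Controls received no cells. On days 5, 6 and 7 the 2 other treatments placed 1000000 cells next to the tumour of the right limb. These were pMC, proliferating myeloid cells made from induced pluripotent stem cells, or IFN-alpha-pMC, which carry the IFN-alpha mark in their label. All groups carry the same tumour line in the same strain, and the labels give no age of the mice. Each treatment gave a right (injected side) and a left (distant) group, so there were 6 groups with 3 libraries each. The control tumours of the right limb are tagged as the treated side in the labels but were given nothing. The labels do not state that a group's tumours came from separate mice, nor that tumours of equal number shared 1 mouse. P-values here therefore cover only how far these samples differ, and that spread may be technical.

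Type I interferons (interferon alpha and beta) bind a receptor made of Ifnar1 and Ifnar2, while interferon gamma binds a receptor made of Ifngr1 and Ifngr2. Tyk2 sits on Ifnar1, Jak1 on Ifnar2 and Ifngr1, and Jak2 on Ifngr2. Upon binding, the kinases phosphorylate STAT proteins. Stat2 acts with Irf9 at interferon-stimulated response elements (ISRE) after type I interferon, while gamma-activated sites (GAS) are DNA motifs bound by pairs of STAT proteins. Stat3 mainly answers cytokines of the IL-6 and IL-10 families, and its activity in melanoma cells has been tied to survival and to a weaker immune response. Ligand binding acts on these proteins through phosphorylation, which RNA levels do not report. Within tumours, both the melanoma cells and the infiltrating leukocytes carry these receptors.

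Depth and library quality bear on every value below. Library totals ran from 14346091 to 23430259 counts, and the members had between 298 and 9270 counts in each library. The melanocyte enzyme Tyr stood between 1461 and 4425 CPM (counts per 1000000 library counts, scaled by trimmed means) in the 18 libraries, so this marker of the labelled tumour was present in each. Libraries differed in how their levels leaned with transcript length. Over 14395 genes, the Spearman correlation of a gene's centred log2 CPM with its transcript length was -0.51 in control right 3, -0.48 in IFN-alpha-pMC left 1 and 0.40 in IFN-alpha-pMC right 3. The other IFN-alpha-pMC right libraries were at -0.30 and -0.42, and the other control right libraries at 0.35 and 0.57. On the left, controls were at 0.29 to 0.40 and the other IFN-alpha-pMC libraries at -0.18 and -0.05. The trend thus ran with treatment there. With GC content, control left libraries correlated at 0.17 to 0.32 and IFN-alpha-pMC left libraries at -0.43 to -0.23. The first 3 libraries named stood apart from their own group. Results are given without them and with a correction for length and GC content. Without them the right control and IFN-alpha-pMC libraries are also fully apart in length trend, so that fit does not remove it. The share of read pairs in no annotated feature was 4.04 to 6.12% in IFN-alpha-pMC libraries and 6.87 to 12.21% in the other 12. Its part in the results was not tested.

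Every member was readily measured in untreated tumours. In CPM per kilobase of transcript, a level that can be set side by side between genes, the 6 control libraries had a median of 43.7 for Stat3 (27.7 to 48.2), 29.4 for Jak1 (20.5 to 35.0), 27.7 for Ifngr2 (25.4 to 38.3) and 26.6 for Ifnar1 (22.5 to 27.9). Stat2 followed at 19.2 (13.9 to 23.5), Ifngr1 at 12.0 (11.0 to 17.0), Jak2 at 11.6 (8.32 to 14.7), Ifnar2 at 8.68 (8.13 to 9.22) and Tyk2 at 8.36 (4.03 to 8.67). Each gene's range over these libraries overlapped that of its next neighbour in the order. Within each receptor, however, the ranges of the 2 chains did not overlap: Ifngr1 was the scarcer RNA beside Ifngr2, and Ifnar2 beside Ifnar1.

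Beside the injected IFN-alpha-pMC, 3 of the 9 members rose against control tumours of the same side: Ifngr1, Stat2 and Ifnar2, of which Ifngr1 and Ifnar2 are the scarcer chains of their receptors. Across all 14849 genes tested, 10.8% passed the threshold in this comparison (edgeR's quasi-likelihood test, Benjamini-Hochberg adjusted p below 0.05, 1303 higher and 298 lower). The median log2 fold change was 0.24 over the 9 members and -0.03 over all genes, and 8 of 9 were above 0. Against pMC on the same side, the same 3 members rose (10.1% of all genes passed), with a median of 0.28 over the members and -0.04 over all genes. Both comparisons use the same IFN-alpha-pMC libraries. The groups did not overlap for 3 members and 18.6% of all genes against control, and for 4 members and 25.1% against pMC.

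**Figure D1:**
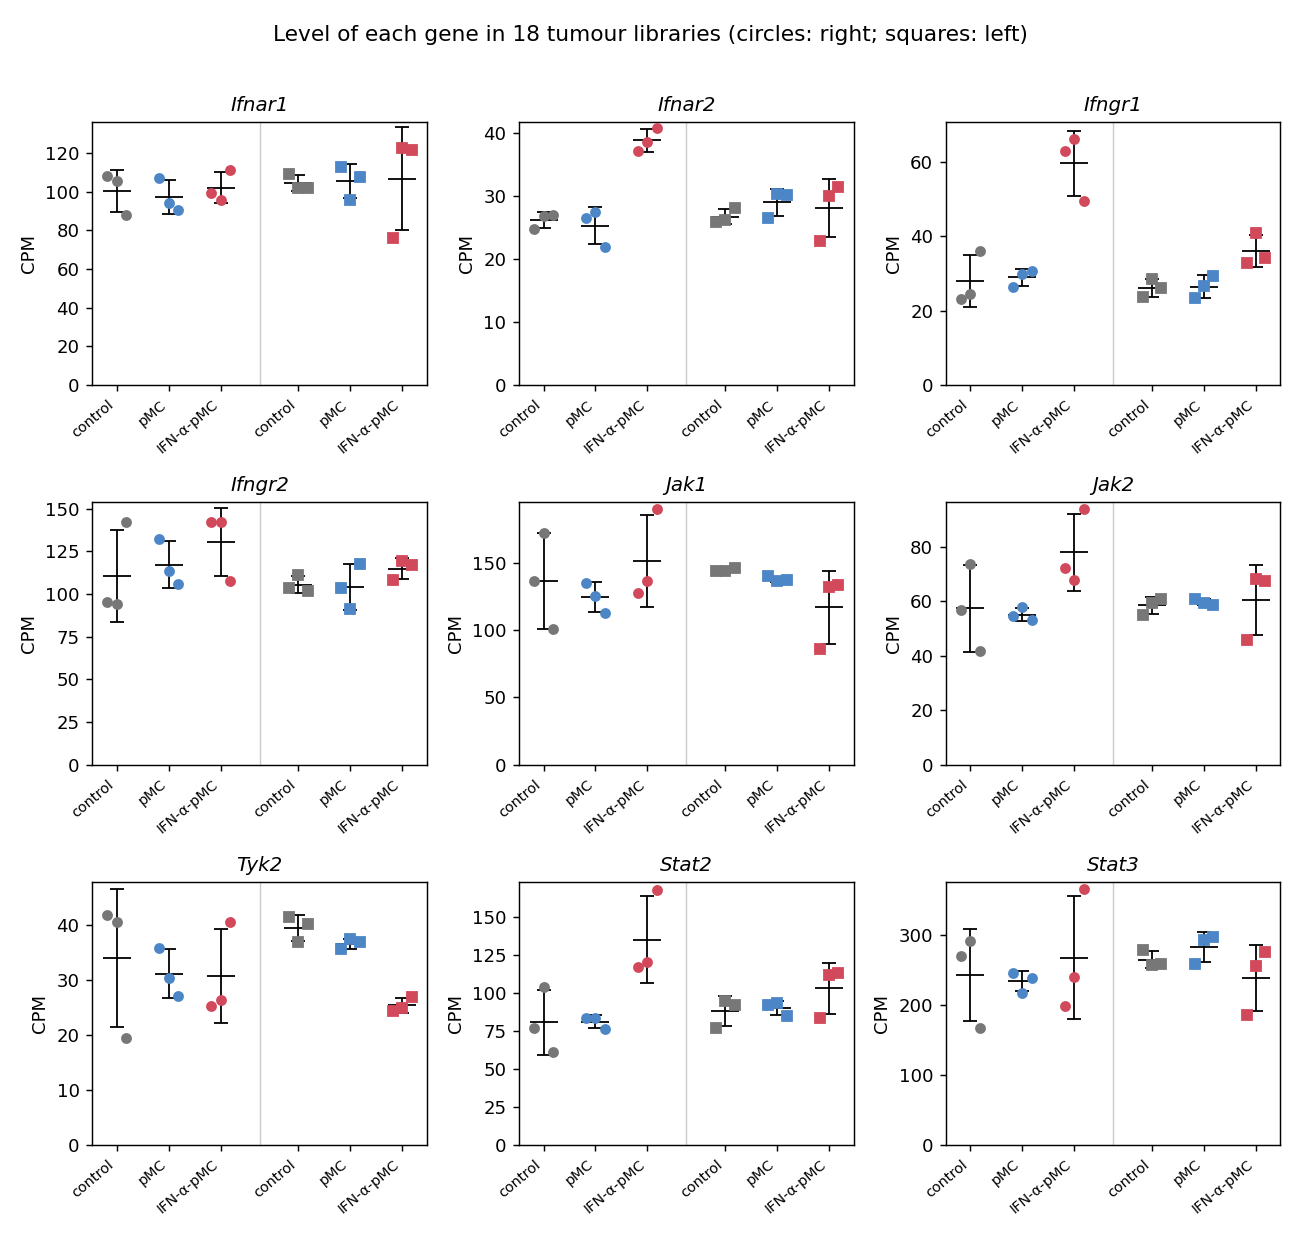
CPM of the 9 genes in each of the 18 libraries (points), with mean and SD (n = 3) per group. Ifngr1, Ifnar2 and Stat2 in the IFN-alpha-pMC right libraries sit above all control and pMC libraries of the right side, while the Ifnar1 points of the groups overlap. Of all genes, 18.6% did not overlap between IFN-alpha-pMC right and control right libraries, and 25.1% between IFN-alpha-pMC right and pMC right.

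Ifngr1 (ENSMUSG00000020009), the chain that binds interferon gamma, had the largest change of the members. Its level in control right libraries 1, 2 and 3 was 23.2, 24.5 and 35.9 CPM, and in pMC right libraries 26.3, 29.7 and 30.6 CPM. In IFN-alpha-pMC right libraries it was 63.0, 66.1 and 49.6 CPM. All 3 treated libraries were above the highest of the other right libraries, and control right 3 was the highest control. The rise was 1.10 ± 0.18, adjusted p = 0.000439 against control, a 2.14-fold change, and 1.04 ± 0.18, adjusted p = 0.000723 against pMC. On the left, control libraries had 23.6, 28.6 and 26.0 CPM, pMC libraries 23.3, 26.7 and 29.4 CPM and IFN-alpha-pMC libraries 32.8, 40.9 and 34.2 CPM. The left IFN-alpha-pMC libraries thus lay above the left controls and below the right IFN-alpha-pMC libraries without overlap. Of all genes, 49.7% did not overlap in the first of these comparisons and 14.1% in the second. The left difference against control did not pass the test (0.47 ± 0.18, adjusted p = 0.0847). In order of mean level, IFN-alpha-pMC right (59.5 ± 8.78 CPM, SD, n = 3) was followed by IFN-alpha-pMC left (36.0 ± 4.30), and the 4 other groups had means of 26.1 to 28.9 CPM with overlapping libraries.

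Ifngr2 (ENSMUSG00000022965), the partner chain that carries Jak2, did not pass the test in any comparison. It had 95.4, 94.3 and 142 CPM in control right, 132, 113.5 and 106 CPM in pMC right and 142, 142 and 107.5 CPM in IFN-alpha-pMC right libraries. Control right 3 reached the level of the 2 highest treated libraries, and IFN-alpha-pMC right 3 lay among the pMC libraries. The fitted difference was 0.24 ± 0.17, adjusted p = 0.45 against control. Left groups had means of 105.5 ± 4.91, 104 ± 13.3 and 115 ± 6.00 CPM for control, pMC and IFN-alpha-pMC (SD, n = 3).

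The balance of these 2 chains was also taken within each library. The ratio of Ifngr1 to Ifngr2, each in CPM per kilobase, was 0.442 ± 0.015 in control right, 0.439 ± 0.082 in pMC right and 0.801 ± 0.022 in IFN-alpha-pMC right libraries (SD, n = 3). On the left it was 0.434 ± 0.029, 0.449 ± 0.061 and 0.549 ± 0.047 for the same treatments. The IFN-alpha-pMC right libraries (0.777 to 0.817) did not overlap the control right libraries (0.427 to 0.456), a pattern an exact permutation test with 3 against 3 libraries cannot take below p = 0.1. A ratio within a library does not move with its scaling factor, although it can move with the length trend, since the transcripts used are 2112 and 3708 bases long.

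Ifnar2 (ENSMUSG00000022971), the chain of the type I receptor that binds interferon most tightly and carries Jak1, had 24.8, 26.7 and 26.9 CPM in control right libraries and 26.6, 27.4 and 21.9 CPM in pMC right libraries. IFN-alpha-pMC right libraries had 37.1, 38.5 and 40.8 CPM. The treated libraries lay close together and above the 6 others of that side. The rise was 0.57 ± 0.14, adjusted p = 0.0117 against control (1.48-fold) and 0.62 ± 0.14, adjusted p = 0.00663 against pMC. The call against control was lost without control right 1, at 0.45 (adjusted p = 0.11), with only the compared groups in the fit, at 0.51 (adjusted p = 0.231), and with library totals as the only scaling (adjusted p = 0.0603). With a muscle score as covariate both calls were lost, at 0.57 (adjusted p = 0.0761) against control and 0.62 (adjusted p = 0.0672) against pMC. The fitted differences thus hardly moved. The score itself ran with treatment, at 1.43 to 3.99 in IFN-alpha-pMC libraries and -4.90 to 2.27 in the others. The part of muscle in this rise was not tested. The protein-coding gene Gm21970 overlaps Ifnar2 on the same strand, so reads of the 2 may not be told apart. On the left the 3 groups overlapped, with 22.8, 30.0 and 31.4 CPM in IFN-alpha-pMC against 25.8, 26.2 and 28.1 CPM in control libraries (0.07 ± 0.14, adjusted p = 0.701).

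Ifnar1 (ENSMUSG00000022967), the chain that carries Tyk2, had overlapping levels in the 3 groups of each side. It had 108, 106 and 87.9 CPM in control right and 99.2, 95.6 and 111 CPM in IFN-alpha-pMC right libraries (0.02 ± 0.17, adjusted p = 0.963). On the left, IFN-alpha-pMC left 1 had the lowest level of all libraries (76.1 CPM) and the 2 others of that group the highest (122 and 121.5 CPM). The Ifnar2 to Ifnar1 ratio per kilobase was 0.338 ± 0.05 in control right, 0.489 ± 0.024 in IFN-alpha-pMC right and 0.344 ± 0.037 in IFN-alpha-pMC left libraries (SD, n = 3). Ifnar2, Ifnar1 and Ifngr2 lie in 1 stretch of chromosome 16, on the plus strand, with first transcribed bases at 91372783, 91485215 and 91547059 of GRCm38.p6, so this stretch of 174 kilobases holds 1 member that rose on the right and 2 that did not pass the test.

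**Figure D2:**
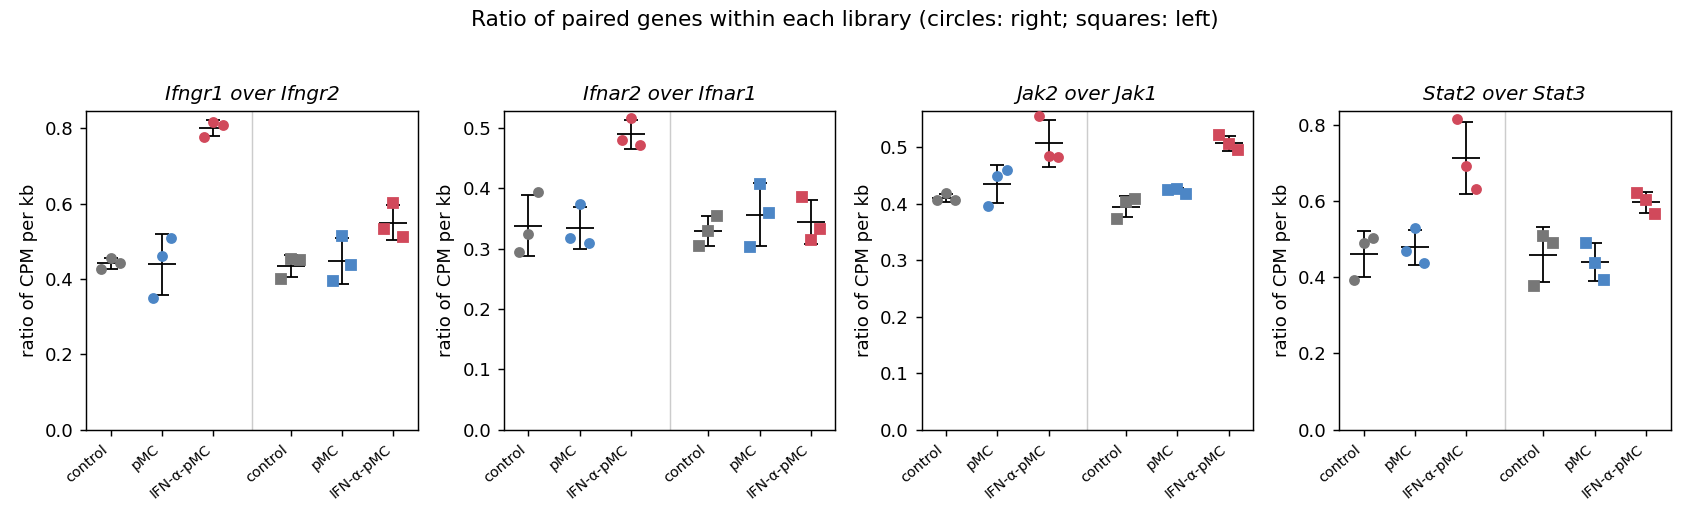
Ratio of 4 gene pairs within each library, each gene in CPM per kilobase of transcript (points: libraries; bars: mean and SD, n = 3). The Ifngr1 to Ifngr2 ratio is highest in IFN-alpha-pMC right libraries (0.777 to 0.817), lower in IFN-alpha-pMC left libraries (0.512 to 0.602) and lower again in the other 12 (0.349 to 0.515), whose top library overlaps the left group.

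Among the kinases no member passed the test on either side. Jak2 (ENSMUSG00000024789), which serves the interferon gamma receptor, had its largest differences on the right. It had 56.9, 73.8 and 41.8 CPM in control right, 54.7, 57.8 and 53.0 CPM in pMC right and 72.4, 67.7 and 94.0 CPM in IFN-alpha-pMC right libraries. The treated libraries lay above all 3 pMC libraries, but control right 2 lay above 2 of them. The difference was 0.44 ± 0.19, adjusted p = 0.171 against control and 0.50 ± 0.19, adjusted p = 0.134 against pMC. On the left, control libraries had 55.2, 59.5 and 60.9 CPM and IFN-alpha-pMC libraries 45.8, 68.4 and 67.5 CPM (0.05 ± 0.19, adjusted p = 0.859).

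Jak1 (ENSMUSG00000028530), which serves both receptors, had 137, 172 and 100.5 CPM in control right and 127, 137 and 190.0 CPM in IFN-alpha-pMC right libraries (0.15 ± 0.20, adjusted p = 0.739). These ranges overlap. On the left it had 144, 144 and 146 CPM in controls and 85.7, 132 and 133 CPM with IFN-alpha-pMC. The treated libraries were thus all lower without passing the test (-0.31 ± 0.20, adjusted p = 0.268), and 49.7% of all genes did not overlap there. The Jak2 to Jak1 ratio per kilobase was 0.41 ± 0.0075 in control right and 0.507 ± 0.041 in IFN-alpha-pMC right libraries. On the left it was 0.395 ± 0.019 and 0.507 ± 0.013. In both limbs the treated libraries lay above the controls, and both transcripts are of similar length (5030 and 4906 bases). Their GC content was 44.3 and 47.6%, so the ratio can still move with the GC trend of the libraries. The ratio was not tested.

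Tyk2 (ENSMUSG00000032175), the kinase of Ifnar1, had 41.9, 40.6 and 19.4 CPM in control right and 25.2, 26.4 and 40.5 CPM in IFN-alpha-pMC right libraries (-0.15 ± 0.23, adjusted p = 0.781). Control right 3 had the lowest Tyk2 level of all 18 libraries. On the left it had 41.4, 36.9 and 40.1 CPM in controls, 35.6, 37.4 and 36.8 CPM with pMC and 24.3, 24.9 and 26.96 CPM with IFN-alpha-pMC. The 3 treated left libraries were the lowest of that side, where 49.7% of all genes did not overlap against control and 43.3% against pMC. The difference was -0.64 ± 0.24, adjusted p = 0.0804 against control and -0.53 ± 0.23, adjusted p = 0.145 against pMC. After correction for transcript length and GC content that left difference was 0.00 (adjusted p = 0.999). An antisense gene, 1700084C06Rik, overlaps Tyk2, and whether the counts used strand is not stated in the sources used here. The same holds for Raver2 with Jak1 and Stat5a with Stat3, which overlap on opposite strands.

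Stat2 (ENSMUSG00000040033), the STAT protein that answers type I and type III interferon, had 76.9, 103.5 and 61.3 CPM in control right and 83.5, 83.7 and 75.9 CPM in pMC right libraries. It had 117, 120.3 and 168 CPM in IFN-alpha-pMC right libraries. All 3 treated libraries were above the 6 others, with IFN-alpha-pMC right 3 the highest and control right 3 the lowest. The rise was 0.74 ± 0.19, adjusted p = 0.0178 against control (1.68-fold) and 0.74 ± 0.19, adjusted p = 0.0194 against pMC. Without IFN-alpha-pMC right 3 the value against control was 0.46 (adjusted p = 0.118), and without the 3 libraries that stand apart it was 0.34 (adjusted p = 0.0474). The call was also lost without control right 1, control left 2, control left 3 or pMC right 2 (adjusted p of 0.143, 0.0552, 0.0565 and 0.0562), with only the compared groups in the fit (adjusted p = 0.376) and with library totals as the only scaling (adjusted p = 0.0822). Against pMC it was lost without any 1 of the 3 pMC right libraries (adjusted p of 0.0591 to 0.0794), with library totals (adjusted p = 0.0524) or without IFN-alpha-pMC right 3, at 0.53 (adjusted p = 0.1). Left libraries had 76.5, 94.9 and 92.2 CPM in controls and 83.6, 112 and 113 CPM with IFN-alpha-pMC, which overlap (0.23 ± 0.19, adjusted p = 0.376).

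Stat3 (ENSMUSG00000004040) was the member with the highest level per kilobase. It had 269.7, 291 and 167 CPM in control right, 245, 217.5 and 238 CPM in pMC right and 197.5, 239 and 366 CPM in IFN-alpha-pMC right libraries. The treated group held both the highest library of that side and one below all pMC libraries. Its difference was 0.14 ± 0.23, adjusted p = 0.784 against control on the right and -0.15 ± 0.23, adjusted p = 0.638 on the left, where IFN-alpha-pMC libraries had 185, 256 and 275 CPM. The Stat2 to Stat3 ratio per kilobase was 0.461 ± 0.06 in control right and 0.712 ± 0.094 in IFN-alpha-pMC right libraries, and 0.459 ± 0.071 and 0.596 ± 0.028 on the left (SD, n = 3).

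The promoters of the 3 members that rose are shown because interferon-responsive genes often hold STAT-binding motifs there. They are the 250 bases before the annotated start on GRCm38.p6 (RefSeq), all on the plus strand, at chr10:128270248-128270497 for Stat2, chr16:91372533-91372782 for Ifnar2 and chr10:19591699-19591948 for Ifngr1. Capitals mark matches to the ISRE core GAAANNGAAA or the GAS core TTCNNNGAA on either strand.
Stat2: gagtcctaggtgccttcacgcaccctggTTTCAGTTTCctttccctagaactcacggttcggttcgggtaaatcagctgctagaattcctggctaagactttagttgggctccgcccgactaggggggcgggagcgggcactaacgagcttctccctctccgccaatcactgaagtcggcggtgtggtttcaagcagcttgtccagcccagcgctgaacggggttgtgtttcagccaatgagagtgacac
Ifnar2: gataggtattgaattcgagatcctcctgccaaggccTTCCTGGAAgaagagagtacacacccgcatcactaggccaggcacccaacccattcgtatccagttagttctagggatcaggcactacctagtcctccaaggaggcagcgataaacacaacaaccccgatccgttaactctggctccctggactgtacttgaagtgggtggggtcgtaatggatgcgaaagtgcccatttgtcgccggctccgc
Ifngr1: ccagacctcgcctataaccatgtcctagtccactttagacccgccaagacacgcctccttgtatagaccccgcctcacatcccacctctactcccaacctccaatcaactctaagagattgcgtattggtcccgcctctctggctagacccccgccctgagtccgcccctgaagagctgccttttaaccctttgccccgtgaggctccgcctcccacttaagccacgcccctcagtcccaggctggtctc
Stat2 holds an ISRE core, read on the minus strand (TTTCAGTTTC on the strand shown), at positions -222 to -213 from the start, and no other member holds one in the window of 250 bases before to 50 after the start. Ifnar2 holds a GAS core at -214 to -206 (TTCCTGGAA). Ifnar1, which did not pass the test, holds one that spans its start (TTCACGGAA, -5 to 3). Ifngr1, with the largest rise, holds neither motif in this window, nor do Ifngr2, Jak1, Jak2, Tyk2 and Stat3. Of all 32851 promoter windows, 3.44% hold the ISRE core and 8.3% the GAS core. A match describes letters only and does not show binding.

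**Figure D3:**
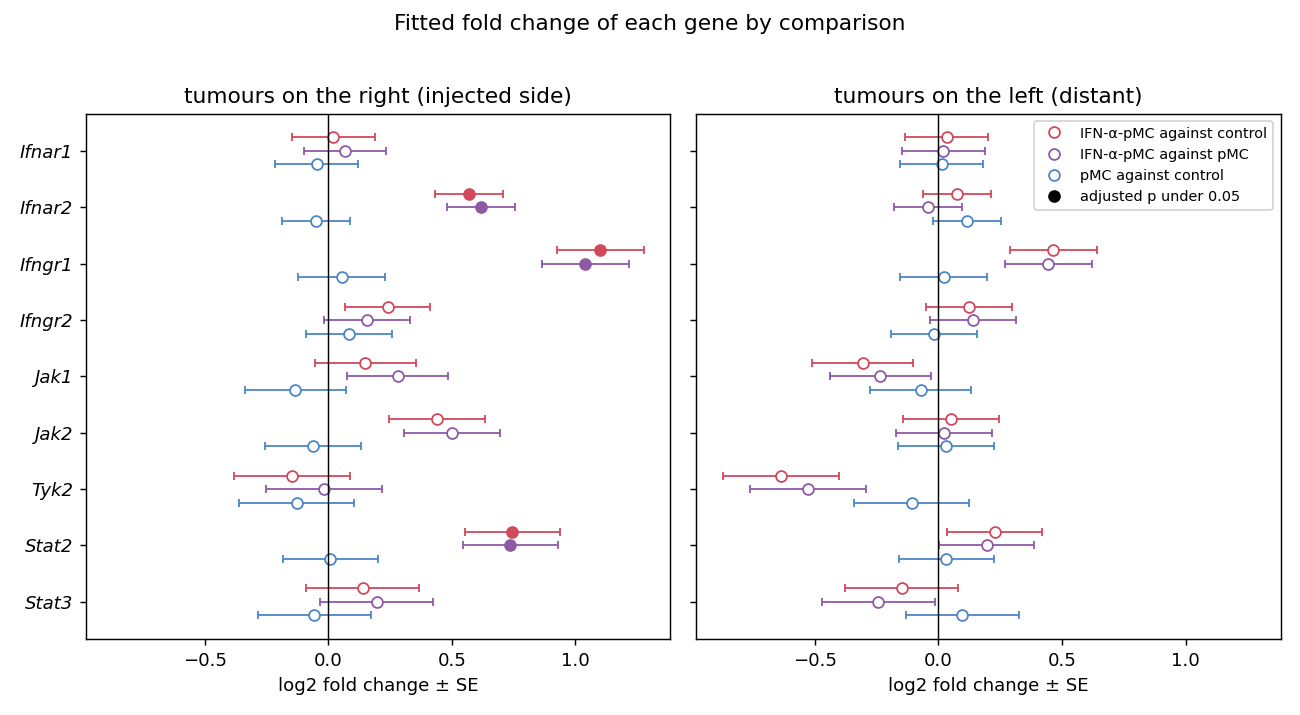
Fitted log2 fold change (point) and SE (bar) of the 9 genes for IFN-alpha-pMC against control, IFN-alpha-pMC against pMC and pMC against control, on the right and the left. Filled points have an adjusted p below 0.05: Ifngr1, Stat2 and Ifnar2 on the right in both IFN-alpha-pMC comparisons, and none on the left or for pMC against control.

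In distant tumours, 0 of 9 members passed the test for IFN-alpha-pMC against control, where 6.65% of all genes did. At an unadjusted p under 0.05 there were 2 (Ifngr1 and Tyk2), and DESeq2 called 0. The member median was 0.05 and that of all genes 0.07. Ifngr1 stood at 0.47 ± 0.18, adjusted p = 0.0847, and Tyk2, Ifngr1 and Jak1 were the 3 members whose treated libraries did not overlap the controls. On this side 49.7% of all genes did not overlap either. Against pMC, 0 of 9 passed on the left (3.85% of all genes, 2 members at an unadjusted p under 0.05, DESeq2 0), with Ifngr1 at 0.44 ± 0.18, adjusted p = 0.112.

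With IFN-alpha-pMC, Ifngr1 was the 1 member past the threshold for injected-side against distant tumours, higher by 0.72 ± 0.17, adjusted p = 0.0343. In this comparison 2.53% of all genes passed, and 8 of 9 members were above 0. The groups did not overlap for 3 members (Ifngr1, Ifnar2 and Stat2) and 14.1% of all genes. DESeq2 called 2 members there, the length and GC correction also gave 2, and the fit of the compared groups alone gave 0 (Ifngr1 at adjusted p = 0.145). Ifnar2 stood at 0.47 ± 0.14, adjusted p = 0.102 and Stat2 at 0.39 ± 0.19, adjusted p = 0.449 in that comparison. The call for Ifngr1 was lost without IFN-alpha-pMC right 1 or 2, without any of the 3 IFN-alpha-pMC left libraries and without pMC left 2, with adjusted p up to 0.148 (without IFN-alpha-pMC right 2). Whether the IFN-alpha-pMC effect differed between sides was tested directly. For the effect against control, 0 members passed (0.0% of all genes, 2 members at an unadjusted p under 0.05, DESeq2 0), with Ifngr1 at 0.63 ± 0.25, adjusted p = 0.637 and Ifnar2 at 0.49 ± 0.20, adjusted p = 0.643. For the effect against pMC, 0 members passed (0.391% of all genes, 2 at an unadjusted p under 0.05), with Ifnar2 at 0.66 ± 0.20, adjusted p = 0.19. DESeq2 called 1 member there. A call on the right and none on the left is therefore not shown to be a difference between the sides.

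No member passed the test for cells without the IFN-alpha mark. For pMC against control, 0 of 9 members passed on the right (0.0% of all genes), with differences of -0.13 to 0.08, and 0 of 9 on the left (0.0% of all genes), with differences of -0.11 to 0.12. Right against left gave 0 of 9 in pMC mice (0.0% of all genes, -0.27 to 0.17) and 0 of 9 in controls (0.0% of all genes, -0.21 to 0.09). The side difference of the pMC effect likewise had 0 of 9 (0.0% of all genes). In these 5 comparisons 0 members were at an unadjusted p under 0.05 and DESeq2 called 0. Libraries of some members still did not overlap. For pMC right against left this held for 4 members (Jak1, Jak2, Stat2 and Stat3) and 19.8% of all genes. For pMC left against control left it held for 1 member (Jak1) and 14.8% of all genes. It held for 0 members for pMC against control on the right (3.32% of all genes) and between the control sides (2.12%). A p that misses the threshold does not show that the levels were equal.

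The partners of the members outside the list were measured in the same fit. On the left against control, 0 of 9 other kinases, STATs and receptor chains passed (4 at an unadjusted p under 0.05, DESeq2 3), where 6.65% of all genes did. On the right against control 2 of the 9 rose, where 10.8% of all genes passed. Stat4, which conveys IL-12 signals in T and NK cells, rose from 2.01 ± 0.447 to 7.91 ± 1.06 CPM (1.97 ± 0.26, adjusted p = 8.01e-05). Il10ra, the IL-10 receptor chain of leukocytes, rose from 10.2 ± 3.05 to 37.9 ± 7.01 CPM (1.89 ± 0.25, adjusted p = 7.43e-05). Irf9, the DNA-binding partner of Stat2, had 89.2 ± 22.9 CPM in control right and 113 ± 13.6 CPM in IFN-alpha-pMC right libraries (0.34 ± 0.15, adjusted p = 0.185). Il10rb, a chain shared by the IL-10 and type III interferon receptors, stood at 0.17 ± 0.12, adjusted p = 0.463 and Ifnlr1, the type III receptor chain, at -0.03 ± 0.18, adjusted p = 0.954. Jak3 stood at 0.57 ± 0.28, adjusted p = 0.227, and Stat5a, Stat5b and Stat6 between -0.31 and 0.10 with adjusted p of 0.34 to 0.93.

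Of the ligands, 11 of the 21 listed interferon genes matched a row in the files, and the rest were not analysed here. Ifng, the ligand of Ifngr1 and Ifngr2, rose from 0.674 ± 0.515 to 7.10 ± 0.947 CPM on the right (3.35 ± 0.40, adjusted p = 3.94e-05) and from 0.642 ± 0.141 to 3.08 ± 0.697 CPM on the left (2.26 ± 0.42, adjusted p = 0.00961). Summed over 3 libraries it had 43 counts in control right, 451 in IFN-alpha-pMC right, 32 in control left and 161 in IFN-alpha-pMC left. Ifnb1 had 2 to 4 counts in every group. The interferon alpha genes Ifna2, Ifna4, Ifna12 and Ifna13 had 0 counts in all 18 libraries and Ifna16 had 2 in control right alone. A count of 0 allows up to 3 counts, or 0.128 to 0.209 CPM, in a library. Read pairs that align to several places are not counted, and the interferon alpha genes are near-identical copies, so these low counts are uncertain.

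Feedback inhibitors of the pathway form another list. Of 16 listed feedback genes, 6 rose on the right (10.8% of all genes passed) and 4 on the left (6.65%) against control. The list's median on the left was -0.01 and that of all genes 0.07. Against pMC, 5 rose on the right (10.1% of all genes passed) and 0 passed on the left (3.85%). In that left comparison 9 were at an unadjusted p under 0.05 in edgeR, and DESeq2 called 6. The counts against control include Ptprc (CD45), a phosphatase of JAK kinases that is also the marker all leukocytes carry. Socs1, an inhibitor of the JAK kinases, rose from 4.59 ± 0.772 to 16.1 ± 0.583 CPM on the right (1.81 ± 0.26, adjusted p = 0.000144) and from 4.21 ± 0.195 to 7.83 ± 2.42 CPM on the left (0.90 ± 0.26, adjusted p = 0.0483; against pMC adjusted p = 0.0803). Isg15, a ubiquitin-like protein induced by interferon, stood at 1.30 ± 0.33, adjusted p = 0.0164 on the right and 1.43 ± 0.33, adjusted p = 0.0279 on the left against control, with adjusted p of 0.134 and 0.0567 against pMC.

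Known targets and inputs of Stat3 form the next lists. Against control, 10.8% of all genes passed on the right and 6.65% on the left, and against pMC 10.1% and 3.85%. Of 19 tested Stat3 targets, 8 rose on the right (median 0.65) and 0 passed on the left (median 0.41, 8 at an unadjusted p under 0.05, DESeq2 4). Among them Pim1, a survival kinase, rose from 4.80 ± 0.358 to 12.96 ± 0.768 CPM and Il4ra, the IL-4 receptor chain, from 13.1 ± 2.27 to 39.8 ± 8.63 CPM on the right. Of 17 tested cytokines and receptors that feed Stat3, 8 rose on the right, among them Il10 (3.13 ± 0.60, adjusted p = 0.00201) and Il27ra (2.39 ± 0.45, adjusted p = 0.00154), and 1 on the left. That gene, Il6, had 0.727 ± 0.290 CPM in IFN-alpha-pMC left and 0.0188 ± 0.0326 CPM in control left libraries (adjusted p = 0.0394), so its control level was near 0 and no fold is given. Against pMC left its adjusted p was 0.103. Against pMC, Stat3 targets had 8 higher on the right and 1 on the left, and the inputs 7 and 1. These lists were written with earlier results of the same data known, so their direction is no independent evidence.

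Markers of several cell types moved with the treatment as well. In these whole-tumour libraries, a change in the number of cells of a type and a change in RNA per cell cannot be told apart. The marker counts below stand beside shares of all genes past the threshold of 10.8% (right) and 6.65% (left) against control. Against pMC these shares were 10.1% and 3.85%. Of 6 pan-leukocyte markers, 6 were higher with IFN-alpha-pMC than in controls on the right, and 3 on the left. Their summed level was 192 to 368 CPM in control right and 917 to 1021 CPM in IFN-alpha-pMC right libraries, and 218 to 296 and 445 to 480.4 CPM on the left, with no marker at 0. Ptprc (CD45), which all leukocytes carry, went from 33.8 ± 12.3 to 152 ± 16.3 CPM on the right, and the T cell receptor subunit Cd3e from 1.90 ± 1.07 to 14.8 ± 2.67 CPM. Of 10 monocyte and macrophage markers, 6 were higher on the right, with Cd68 at 46.7 ± 8.55 CPM in controls and 162.5 ± 12.98 CPM with IFN-alpha-pMC. Csf1r, of the same list, overlapped on the right, at 32.3 ± 10.05 CPM in controls and 50.3 ± 21.6 CPM with IFN-alpha-pMC. On the left Csf1r had 30.6 ± 5.35 and 26.6 ± 2.64 CPM. Of 8 melanocyte markers, 0 passed on the right (0 at an unadjusted p under 0.05, DESeq2 0) and 0 on the left (3 and 1), with a summed level of 31360.0 to 44730.0 CPM in control right and 29870.0 to 37780.0 CPM in IFN-alpha-pMC right libraries. Of 8 T cell markers 8 were higher on the right and 5 on the left, against control, with summed levels of 15.3 to 32.4 CPM in control right and 159 to 215.6 CPM in IFN-alpha-pMC right libraries. Of 6 NK cell markers 6 and 4 were higher, with 9.37 to 26.3 and 117 to 153 CPM on the right. Dendritic cell markers had 1 and 2 of 6 higher, fibroblast markers 2 and 2 of 6, B cell markers 2 and 0 of 4 tested, and neutrophil markers 1 and 0 of 3 tested, with Ly6g at 0 in all groups but IFN-alpha-pMC right. Endothelial markers were lower in 3 of 6 on the right, and erythroid markers in 5 of 5 tested, and 0 of either passed on the left. Of the lists with 0 on the left, unadjusted p under 0.05 was met by 2 B cell, 0 neutrophil, 4 endothelial and 0 erythroid markers, and DESeq2 called 0, 0, 2 and 0. Against pMC, pan-leukocyte markers had 6 of 6 higher on the right and 1 on the left, T cell markers 8 of 8 and 1, NK cell markers 6 of 6 and 1, monocyte and macrophage markers 6 of 10 and 3, and fibroblast markers 4 of 6 and 1. The part of these cells in the rise of Ifngr1, Ifnar2 and Stat2 was not tested.

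Skeletal muscle markers had 1 of 12 past the threshold on the right against control, where 10.8% of all genes passed (8 markers at an unadjusted p under 0.05). On the left 3 of 12 passed, where 6.65% of all genes did, and all these calls were higher. Against pMC, 7 of 12 passed on the right (10.1% of all genes) and 2 on the left (3.85% of all genes). The markers summed to 26.6 to 1047 CPM in control right, 1902 to 3822 CPM in IFN-alpha-pMC right, 7.79 to 333.5 CPM in control left and 688 to 1380.0 CPM in IFN-alpha-pMC left libraries, with no marker at 0 in a whole group. With the muscle score as a covariate, Ifngr1 on the right against control was 1.14 (adjusted p = 0.00494), Stat2 0.93 (adjusted p = 0.0265) and Ifnar2 0.57 (adjusted p = 0.0761).

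The length trend and the 3 libraries that stand apart changed which members were called. On the right against control, Ifngr1, Ifnar2 and Stat2 passed under all 4 fits shown in the plot of fits, and no other member did. The calls of Ifnar2 and Stat2 were lost in other fits, as given above. The 3 libraries were picked from these data because they stood apart, so passing without them is no independent check. Without them 33.7% of all genes passed for pMC against control on the right, where 0.0% did with all libraries. With the length and GC correction, 6 of 9 members and 16.1% of all genes passed on the right against control: Ifngr1 at 1.02 (adjusted p = 2.73e-05), Ifnar2 at 0.57 (adjusted p = 0.00147), Stat2 at 0.92 (adjusted p = 5.56e-05), Jak2 at 0.48 (adjusted p = 0.0229), Stat3 at 0.46 (adjusted p = 0.00547) and Tyk2 at 0.25 (adjusted p = 0.0493). Without the 3 libraries and without that correction, 6 passed as well, where 54.4% of all genes did, with Tyk2 at -0.73 (adjusted p = 0.000172) and Stat3 at -0.41 (adjusted p = 0.00732), that is, in the opposite direction, and Ifngr2 at 0.53 (adjusted p = 0.00232). With both, 41.9% of all genes and 6 members passed, all 6 of them higher, among them Ifngr2 at 0.72 (adjusted p = 9.96e-05) and Stat3 at 0.44 (adjusted p = 0.00187). The correction treats any true change that follows length as a trend, and leaving out 3 libraries leaves 2 in each of 3 groups. On the left the correction put Stat2 at 0.53 (adjusted p = 0.0231) and Stat3 at 0.38 (adjusted p = 0.0494) against control, where 4.52% of all genes passed.

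**Figure D4:**
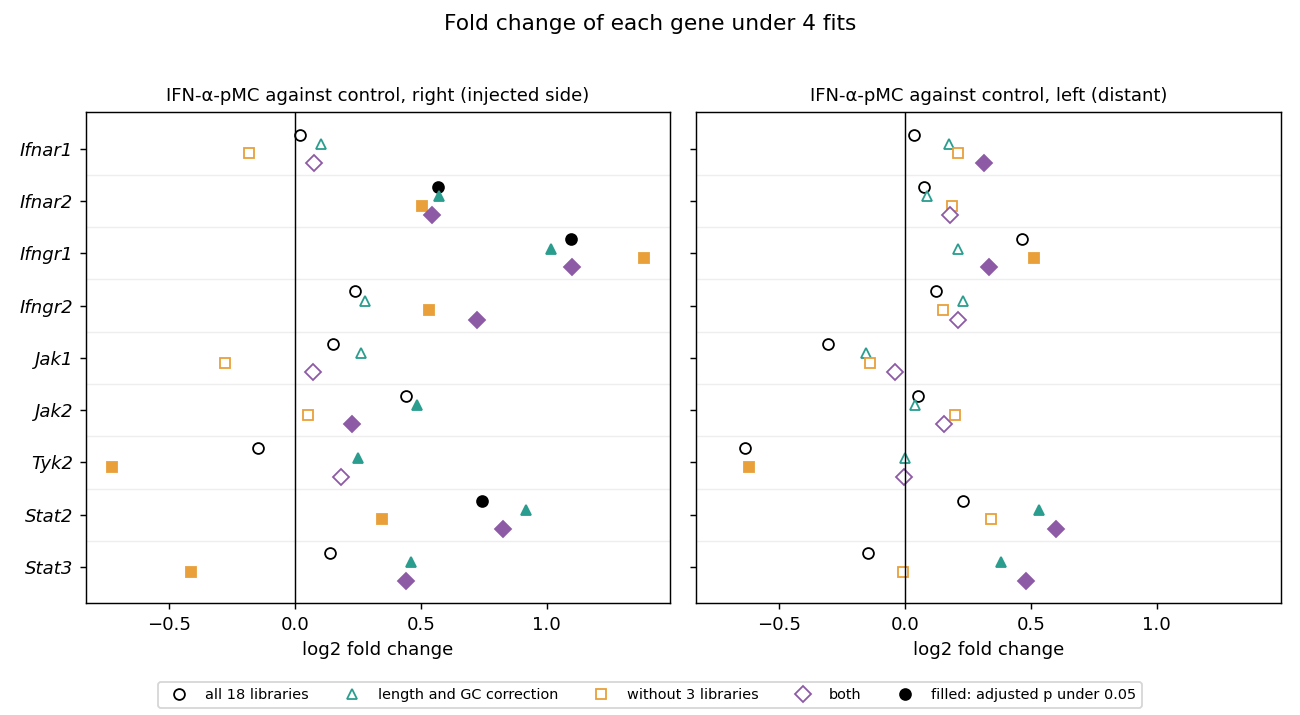
Log2 fold change of the 9 genes for IFN-alpha-pMC against control on each side under 4 fits: all 18 libraries, with a length and GC correction, without the 3 libraries that stand apart, and with both (filled: adjusted p below 0.05). Ifngr1 on the right stays between 1.02 and 1.39 and filled, while Tyk2 on the right runs from -0.73 to 0.25 and Stat3 from -0.41 to 0.46.

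The genes whose log2 CPM followed each member most closely over the 18 libraries were listed as a description. For Ifngr1 they were Ier5 (r = 0.97), Btg1 (r = 0.97) and Mcub (r = 0.97), and for Ifnar2 Unc93b1 (r = 0.97), Tmem229b (r = 0.94) and Ptger4 (r = 0.92). For Stat2 they were Oasl2 (r = 0.97), Dtx3l (r = 0.96) and Nod1 (r = 0.96), of which Oasl2 and Dtx3l are known as interferon-induced genes. For Jak2 they were Samhd1 (r = 0.93), Stat2 (r = 0.93) and Arel1 (r = 0.93). Tyk2 was followed by Bahd1, Irf2bpl and Zbtb7a (each r = 0.97), Jak1 by Camk2d, Tgfbr2 and Man1a2 (r = 0.95 to 0.96), Stat3 by Hivep2, Myo1e and Znfx1 (r = 0.94 to 0.95), Ifnar1 by Stt3b, Snx27 and Yap1 (r = 0.90 to 0.91) and Ifngr2 by Pitpna, Atg4b and Adipor1 (r = 0.89 to 0.91). These 18 libraries include the treated groups and share the length trend, so such values carry no p.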

How the data were processed

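RNA of 18 whole tumours was sequenced from stranded mRNA libraries. The authors deposited 1 table per library that holds raw, unnormalized counts of read pairs for 37620 Ensembl gene IDs. The submitters' processing notes name HTSeq 0.10.0, HISAT2 2.1.0, Trimmomatic 0.36, CASAVA 1.8.2, bcl2fastq, FastQC and DESeq2 1.20.0, and build mm9. For the annotation release and the strand setting, the sources used here give nothing. The 5 summary rows that name no gene (4.04 to 12.21% of pairs in no feature among them) were left out, which leaves 60.2 to 70.7% of pairs.

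Groups came from the sample titles. Counts were tested with edgeR 4.0.16 (quasi-likelihood F test, two-sided, R 4.3.3), with trimmed-mean scaling and filterByExpr at its defaults (14849 genes). The fit had 1 mean per group over all 18 libraries, which left 12 residual degrees of freedom. The common dispersion was 0.0564, a biological coefficient of variation of 23.7%. Benjamini-Hochberg adjustment ran over every tested gene (threshold 0.05). Each SE was taken as the absolute log2 fold change over the root of its F statistic. Levels are CPM, given as mean ± SD over 3 libraries. CPM per kilobase used transcript lengths of GENCODE M21 (GRCm38), a build other than that of the files, where 32897 IDs matched a symbol. Promoters came from RefSeq (GRCm38.p6), with 9 of 9 members matched. The limit for a count of 0 covers counting error only, because read pairs carry no molecular identifiers. The fitting script was tested on simulated counts.

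All 9 members are named, as is each gene listed under other kinases, STATs and receptor chains. From the other pathway lists (feedback genes, interferon ligands, inputs to Stat3, and targets of Stat3) the rule takes the called genes with the 3 largest changes per side, of which examples are printed. For likeness it takes the 3 genes with the highest Pearson r of log2 CPM (prior count 2), and for cell types 1 or 2 defining markers. Further genes and lists of the pathway are not reported here. The members and the lists were chosen with earlier results of these data known. Alternatives were other scalings, no filter, DESeq2 1.42.0, fits of the compared groups alone, a replicate block, a muscle score covariate, a length and GC correction, and leaving out single libraries or 3 at once. The 3 libraries that stand apart were picked from these data. The length and GC correction without them was chosen after seeing the data.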

Additional observations from a re-analysis of the deposited data

How the results depend on the processing

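Over 3078 recomputed log2 values of members, 230 had another sign than reported, and 225 of these were past the threshold in neither fit. The 5 others were Tyk2 on the right against control, at 0.25 with the length and GC correction, and Stat3. Stat3 stood at -0.41 on the right against control without the 3 libraries that stand apart, at 0.38 on the left against control with the correction and at 0.48 with both, and at 0.34 on the left against pMC with both. Ifngr1 on the right kept its call against control and against pMC in all 18 fits that leave out 1 library and in all 10 other fits. The highest adjusted p among these fits was 0.0498 against control, just under the threshold, and 0.00875 against pMC.

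The number of members called on the right against control (3) became 1 with library totals as the only scaling and 1 with only the compared groups. It became 6 with the correction (16.1% of all genes), without the 3 libraries (54.4%), or with both (41.9%). Leaving out single libraries gave 1 to 4 (1 without control right 1, 4 without control right 3). On the left against control (0) the number of members became 1 with only the compared groups and 2 with the correction (4.52% of all genes). Without the 3 libraries it was 2 (28.8%), with both 4 (18.8%), and without single libraries 0 to 2. On the right against pMC (3) the number of members became 5 with the correction (16.7% of all genes) and 7 with both (29.1%). On the left against pMC (0) it became 1 with only the compared groups and 1 with the correction (3.12%). Without the 3 libraries it was 2 (27.6%), with both 4 (19.8%), and without single libraries 0 to 2. For pMC against control on the right (0) it became 2 without the 3 libraries (33.7% of all genes) and 1 with both (15.3%). For right against left with IFN-alpha-pMC (1) the number of members became 0 with only the compared groups and 2 with the correction (4.16% of all genes). It became 2 with DESeq2 and 0 to 1 without single libraries. For the side difference against control (0) it became 1 without the 3 libraries (5.07% of all genes) and 1 with both (0.613%). Against pMC (0) it became 1 with the correction (0.572%) and 1 with DESeq2. The cause of these shifts was not tested.

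Of all genes, 1601 passed on the right against control, with 582 when only the compared groups were fitted, 959 with the muscle score, 8175 without the 3 libraries, 6295 with both, and 1090 to 3946 without single libraries. On the left against control it was 987, with 464 under the replicate block, 123 with the muscle score, 526 with library totals, 2773 by DESeq2, 3062 with only the compared groups, 4331 without the 3 libraries, 2824 with both, and 86 to 4102 without single libraries. On the right against pMC it was 1497, with 772 with the muscle score, 2475 with the correction, 4287 without the 3 libraries and 4370 with both. On the left against pMC it was 572, with 294 with library totals, 350 under the replicate block, 70 with the muscle score, 1985 by DESeq2, 2538 with only the compared groups, 4142 without the 3 libraries, 2975 with both, and 33 to 2884 without single libraries. For pMC against control on the right it was 0, with 5067 without the 3 libraries, 2292 with both and 2 by DESeq2. For right against left with IFN-alpha-pMC it was 375, with 190, 618 and 863 with only the compared groups, with the correction and without the 3 libraries, and 141 to 512 without single libraries. For the side difference against pMC it was 58, with 127 under the replicate block, 133 with a block by treatment and number, 258 by DESeq2, and 0 to 121 without single libraries.

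With the replicate number as a block, 3 members passed on the right against control, with Ifngr1 at 1.11 (adjusted p = 0.00061), and no member call changed. Whether equal numbers mark 1 mouse is not known. Deviations of tumours of equal number and treatment correlated at -0.25 to 0.60 over 9 pairs (median 0.12, 6 over 0.1), and those of other number and equal treatment at -0.51 to 0.39 over 18 pairs (median -0.11, 4 over 0.1). Since not every pair was over 0.1, the numbers were not used to pair samples. Library totals as the only scaling moved the median of all genes by -0.14 on the left against control, by -0.10 on the left against pMC and by 0.11 and 0.13 in the side differences.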
